A study of Homo sapiens with 4 samples.

Results

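Canonical Wnt signalling in MHCC-97H, a line of human hepatocellular carcinoma cells, is described here through 10 genes: CTNNB1, APC, AXIN1, AXIN2, GSK3B, TCF7L2, LEF1, RNF43, LGR4 and GLUL. The genes were chosen by symbol, each had 1 row, and they make up 10 of 33478 rows of the expression table. RNA was sequenced from 2 libraries of cells labelled as carrying a short hairpin RNA (shRNA) against UCK2, a pyrimidine salvage kinase, and from 2 libraries of cells labelled as carrying a control hairpin (SH-NC). All libraries come from this 1 line, both UCK2 titles carry the letter B, and neither the vector nor a possible clonal origin of the cells is given in the sources used here. Values are TPM (transcript abundance on a common total), a level corrected for transcript length, so levels can be compared between genes within a library.

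Beta-catenin, encoded by CTNNB1, has a role in cell junctions and a separate role as a transcriptional co-activator. Without a Wnt signal, the free protein is held by a destruction complex of the scaffolds AXIN1 and AXIN2, APC and kinases including GSK3B, and is marked for degradation. When Wnt ligands bind Frizzled and LRP receptors the complex is inhibited, and beta-catenin enters the nucleus and acts with TCF and LEF factors. In liver the pathway is known for keeping up the pericentral programme, of which glutamine synthetase (GLUL) is the classical gene, and it is often activated in hepatocellular carcinoma. Much of this regulation acts on protein stability, which RNA levels do not measure.

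The target of the hairpin did not separate the groups, so every direction below rests on library titles, and libraries are called UCK2-labelled or control for what those titles say. UCK2 measured 121 and 67.8 TPM in UCK2 shRNA replicates 1 and 2, against 136 and 93.6 TPM in control replicates 1 and 2 (log2 difference of -0.31 with a 95% interval of -1.02 to 0.39, adjusted p = 0.640 with limma). The descriptions of 1 library in each group also give another line number or gene number than its title. The rows used here summed to less of the fixed TPM total in the UCK2-labelled libraries, with 32.3% and 35.7% outside them, against 15.0% and 14.9% in the controls. The median log2 difference of the 14038 genes tested was -0.22, and -0.01 after median-ratio scaling, which divides each library by its median ratio to a common profile. Among hepatocyte markers, 11 of 13 averaged at least 1 TPM, and the summed level of all 13 was 2763 and 2394 TPM in the UCK2-labelled libraries, against 3143 and 4220 TPM in the controls. KRT8 and KRT18 held most of that sum, ALB and AFP were present at 10.5 to 29.5 TPM, and GPC3, a common hepatocellular carcinoma marker, stood at 0.0711 and 0.0203 TPM in the UCK2-labelled libraries, against 0 in either control. The extraction text in the labels names retinas, yet 12 of 14 retina markers averaged under 1 TPM, and the sum of all 14 was 9.38 and 9.63 TPM in the UCK2-labelled libraries, against 10.4 and 12.9 TPM in the controls. ROM1 made up most of it. PDE6B, named after its values were seen, lay the other way at 0.701 and 1.37 TPM in the UCK2-labelled libraries, against 0.0373 and 0 TPM in the controls. Its log2 difference with no filter was 0.98 (95% interval 0.43 to 1.52, limma adjusted p = 0.388). PDE6A and RLBP1 were also higher without overlap on both scales, and RCVRN and RPE65 were lower, all named after their values were seen. RCVRN measured 0 TPM in either UCK2-labelled library, against 0.254 and 0.215 TPM in the controls. Of 11 markers of fibroblasts, endothelium and leukocytes 2 averaged at least 1 TPM, LUM at 19.1 and 12.8 TPM in the UCK2-labelled libraries, against 27.6 and 5.85 TPM in the controls, and PECAM1 at 20.7 and 21.8 TPM in the UCK2-labelled libraries, against 24.5 and 20.4 TPM in the controls, while CD3E was at 0 in all 4. Below the filter DCN, a fibroblast proteoglycan named after its values were seen, was higher without overlap on both scales at 1.09 and 1.39 TPM in the UCK2-labelled libraries, against 0.456 and 0.328 TPM in the controls (log2 difference with no filter 0.69, 95% interval 0.13 to 1.24, adjusted p = 0.388). PDGFRB, also named after its values were seen, was likewise higher without overlap, at 0.0895 and 0.211 TPM in the UCK2-labelled libraries, against 0.0443 and 0.0492 TPM in the controls. VWF and LYZ, named after their values were seen as well, were lower without overlap on both scales. VWF measured 0.211 and 0.137 TPM in the UCK2-labelled libraries, against 0.396 and 0.457 TPM in the controls. For LYZ the values were 0.0921 and 0 TPM in the UCK2-labelled libraries, against 0.243 and 0.207 TPM in the controls. The summed level of all 11 was 42.0 and 38.4 TPM in the UCK2-labelled libraries, against 54.6 and 28.0 TPM in the controls. The part of other cells in the results below was not tested.

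Upstream sequence is shown for 3 of the genes, a scaffold and a kinase of the destruction complex and the main nuclear factor among the 10, because AXIN1 lay apart between the groups on both scales used below, while GSK3B and TCF7L2 overlapped on at least 1. RefSeq's promoter table (GRCh38.p14) held 14 windows for 9 of the 10 genes and none for AXIN2, so no count of motifs below covers AXIN2. The 250 bases before the first listed start are printed 5′ to 3′, from windows that hold no GENCODE 29 exon, with GGGCGG (a GC box, searched on both strands and so also read as CCGCCC) in capitals.

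AXIN1 (chr16:352724-352973, minus strand): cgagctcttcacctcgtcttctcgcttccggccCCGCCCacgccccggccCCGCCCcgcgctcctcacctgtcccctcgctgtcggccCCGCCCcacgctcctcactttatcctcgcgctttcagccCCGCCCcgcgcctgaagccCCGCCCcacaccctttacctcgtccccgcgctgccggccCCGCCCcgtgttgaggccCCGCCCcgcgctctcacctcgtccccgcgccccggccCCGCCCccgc
GSK3B (chr3:120094448-120094697, minus strand): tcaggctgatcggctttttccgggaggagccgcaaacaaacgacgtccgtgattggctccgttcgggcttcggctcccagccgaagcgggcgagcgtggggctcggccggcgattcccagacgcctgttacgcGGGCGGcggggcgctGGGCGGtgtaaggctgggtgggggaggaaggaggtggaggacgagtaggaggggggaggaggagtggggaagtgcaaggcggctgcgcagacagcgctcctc
TCF7L2 (chr10:112949997-112950246, plus strand): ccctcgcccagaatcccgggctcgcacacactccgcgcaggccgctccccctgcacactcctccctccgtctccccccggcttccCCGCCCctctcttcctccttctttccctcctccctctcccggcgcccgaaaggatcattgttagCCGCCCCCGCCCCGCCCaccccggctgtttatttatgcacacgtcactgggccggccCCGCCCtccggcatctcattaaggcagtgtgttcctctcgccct

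AXIN1 held 8 GC boxes in its 250 bases, TCF7L2 held 5 and GSK3B held 2, and 42.6% of all 35116 windows held at least 1. CTNNB1 and GLUL also lay apart between the groups on both scales. Their windows, which hold exons and are not printed, had 3 GC boxes for CTNNB1 and 2 in each window of GLUL. The windows of LGR4 and RNF43 and the further windows of TCF7L2 held 0. Those of APC held 0 and 1, and that of LEF1 held 2. The GC content was 77.6% for AXIN1, 68.0% for TCF7L2 and 68.8% for GSK3B, against a median of 58.0% over all windows. The TCF and LEF core motif, searched as CTTTGAT or CTTTGAA on both strands, was in 0 of the 14 windows of the genes described here and in 5.9% of all windows. These matches describe letters in short windows and are not binding sites.

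The 10 genes covered a wide range of levels. Averaged over the 4 libraries, GLUL stood at 102 TPM and CTNNB1 at 88.4 TPM, which placed them at the 91.9 and 90.7 percentiles of the genes tested. The scaffolds AXIN1 and AXIN2 followed at 37.6 and 33.9 TPM, then the R-spondin receptor LGR4 at 25.2 TPM and the kinase GSK3B at 21.9 TPM. RNF43, a ubiquitin ligase that removes Wnt receptors, and TCF7L2 both averaged 15.2 TPM, at the 56.3 percentile. APC averaged 3.39 TPM, at the 23.7 percentile, and LEF1 averaged 0.446 TPM and was the only one of the 10 below the filter of a mean of 1 TPM. AXIN1 was above AXIN2 in 4 of 4 libraries. GLUL was above CTNNB1 in 3 of 4, AXIN2 above LGR4 in 3 of 4, LGR4 above GSK3B in 3 of 4 and RNF43 above TCF7L2 in 2 of 4, so the order of those neighbours was not fixed across libraries.

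**Figure D1:**
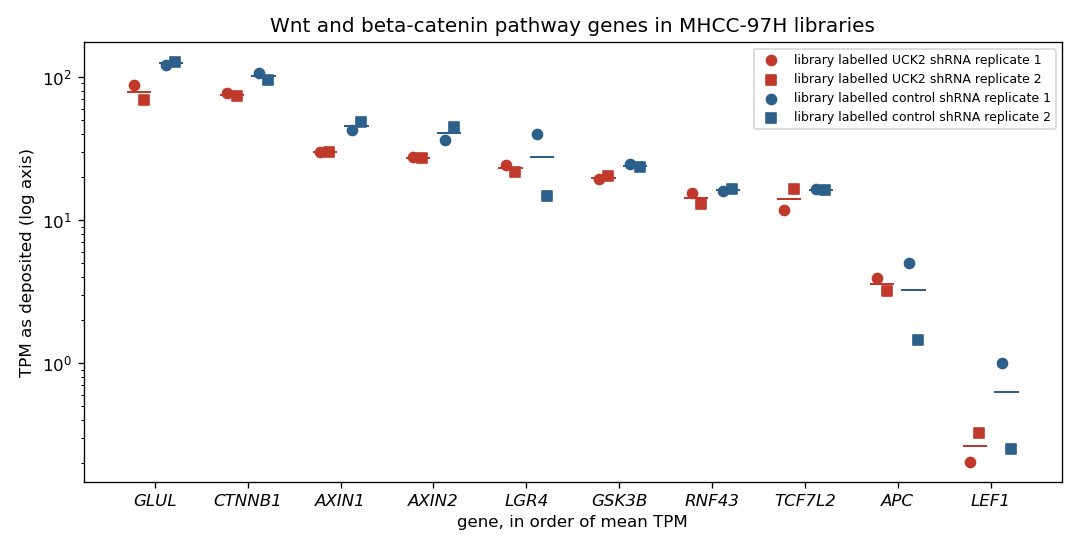
Level of each of the 10 genes in each library, as deposited TPM on a log axis, with the UCK2-labelled libraries (red) left of the controls (blue) and a bar at each group mean (n = 2). GLUL, CTNNB1, AXIN1, AXIN2, GSK3B and RNF43 have red points below all blue points, while for LGR4, APC and LEF1 the control points are far apart.

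None of the 9 genes tested passed the threshold, an adjusted p under 0.05 over all genes tested with limma on log2(TPM + 1). That holds for the whole table as well, with 0% of genes called higher and 0% called lower. After scaling 0 of the 9 passed either, against 0.0641% of genes higher and 0% lower. At an unadjusted p under 0.05, 4 of the 9 (GLUL, AXIN1, AXIN2 and CTNNB1) lay below the controls in the UCK2-labelled libraries and 0 above, against 14% and 1.38% of all genes tested. After scaling 0 of the 9 had an unadjusted p under 0.05, against 1.42% of genes lower and 3.97% higher. The groups did not overlap, with lower values in the UCK2-labelled libraries, for 6 of 9 genes as deposited and 4 of 9 after scaling, against 44.4% and 15.5% of all genes tested. The median log2 difference of the 9 was -0.27 as deposited and -0.03 after scaling, close to the medians of all genes. The 9 are those that passed the filter on the mean over all libraries, and LEF1 was not among them.

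**Figure D2:**
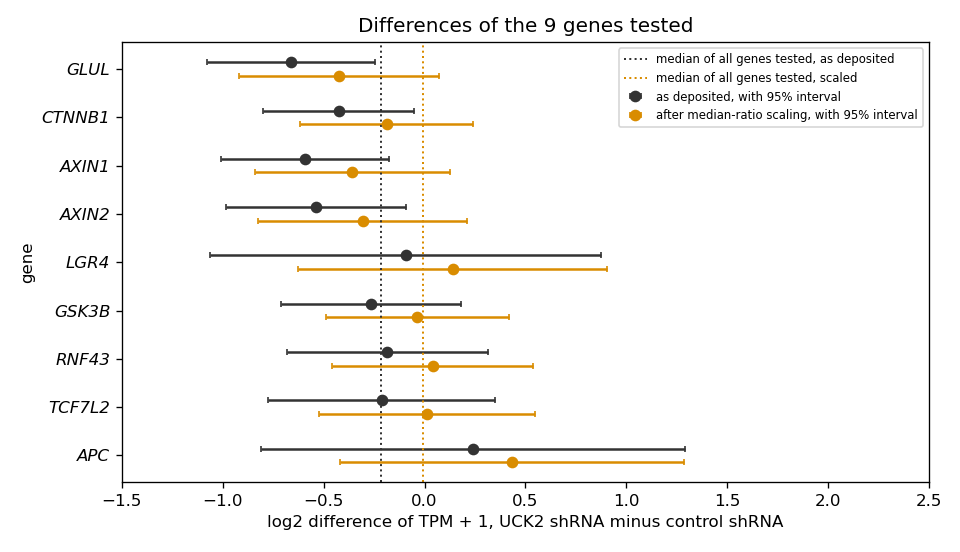
Log2 difference (UCK2 shRNA minus control) of TPM + 1 with its 95% interval for the 9 genes tested, as deposited (dark) and after median-ratio scaling (orange), with dotted lines at the medians of all genes tested. After scaling every interval spans 0, and TCF7L2, RNF43 and LGR4 change from below to above 0.

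CTNNB1, the gene of beta-catenin itself (ENSG00000168036, chr3:41194837-41260096, plus strand of hg38), measured 77.4 and 73.0 TPM in UCK2 shRNA replicates 1 and 2, against 107 and 95.8 TPM in control replicates 1 and 2. Both UCK2-labelled libraries lay below both controls. The means were 75.2 ± 3.11 TPM in the UCK2-labelled libraries and 102 ± 8.04 TPM in the controls (SD, n = 2 each), with a log2 difference of -0.43 ± 0.16 (SE, 95% interval -0.80 to -0.05, adjusted p = 0.297). After scaling the values were 84.3 and 78.7 in UCK2-labelled libraries, against 90.4 and 95.5 in controls, so the groups still did not overlap, and the log2 difference was -0.19 (95% interval -0.62 to 0.24, adjusted p = 0.955). ULK4 overlaps one end of CTNNB1 on the opposite strand at 2.44 and 3.96 TPM in UCK2-labelled libraries, against 3.23 and 3.77 TPM in the controls. In bulk RNA, fewer expressing cells and less RNA per cell cannot be told apart.

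The scaffolds of the destruction complex gave the closest pairs of values within the UCK2-labelled libraries of the 9 genes tested. AXIN1 (ENSG00000103126, chr16:287440-352673, minus strand), which brings the kinases and beta-catenin together, measured 29.7 and 29.8 TPM in UCK2 shRNA replicates 1 and 2, against 42.6 and 48.3 TPM in the controls. Its log2 difference was -0.59 ± 0.18 (SE, 95% interval -1.01 to -0.18, adjusted p = 0.294), and -0.36 after scaling (95% interval -0.84 to 0.13, adjusted p = 0.955). AXIN2 (ENSG00000168646, chr17:65528563-65561647, minus strand) is a scaffold of the same kind and is also a transcriptional target of the pathway, used as a readout of its activity. AXIN2 measured 27.5 and 27.1 TPM in the UCK2-labelled libraries, against 36.2 and 44.5 TPM in the controls. For AXIN1 as for AXIN2 the groups did not overlap on either scale, with control replicate 2 the highest library and control replicate 1 nearer to the UCK2 shRNA values. After scaling AXIN2 stood at 30.0 and 29.3 in UCK2-labelled libraries, against 30.5 in control replicate 1 and 44.4 in control replicate 2, so the gap to the nearer control was small. The AXIN2 log2 difference was -0.54 ± 0.19 (SE, 95% interval -0.99 to -0.09, adjusted p = 0.294), and -0.31 after scaling (adjusted p = 0.955).

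The level of AXIN2 relative to AXIN1 is free of library scaling. AXIN2 stood at 0.927 and 0.910 of the AXIN1 level in UCK2 shRNA replicates 1 and 2, against 0.850 and 0.923 in the controls, and the groups overlapped. The ratio of AXIN2 to CTNNB1 was 0.355 and 0.372 in UCK2-labelled libraries, against 0.338 and 0.465 in controls, and also overlapped. The groups therefore overlapped for AXIN2 when it was set against its paralog or against CTNNB1 in the same library. An unnamed protein-coding locus that overlaps AXIN2 on the same strand had 0.210 and 0.412 TPM in the UCK2-labelled libraries, against 0 in either control.

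GSK3B (ENSG00000082701, chr3:119821323-120094417, minus strand), the kinase that phosphorylates beta-catenin for degradation, measured 19.3 and 20.3 TPM in UCK2 shRNA replicates 1 and 2, against 24.6 and 23.5 TPM in the controls. The groups did not overlap as deposited but did after scaling (21.1 and 21.9 in UCK2-labelled libraries, against 20.7 and 23.4 in controls). GSK3B had a log2 difference of -0.27 ± 0.19 (SE, limma adjusted p = 0.522), or -0.03 once scaled (95% interval -0.49 to 0.42). Set against CTNNB1 in the same library, GSK3B stood at 0.250 and 0.278 in UCK2-labelled libraries, against 0.229 and 0.245 in the controls, so that ratio was higher in each UCK2-labelled library, by a small margin. The ratio of RNF43 to CTNNB1 was also higher, at 0.199 and 0.179 in UCK2-labelled libraries, against 0.150 and 0.172 in the controls. For GLUL, AXIN1, AXIN2, APC, LGR4 and TCF7L2 the ratio to CTNNB1 overlapped between the groups.

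APC (ENSG00000134982, chr5:112707498-112846239, plus strand), the large tumour suppressor of the complex, measured 3.93 and 3.18 TPM in the UCK2-labelled libraries, against 5.01 TPM in control replicate 1 and 1.45 TPM in control replicate 2. The controls lay on either side of both other libraries. Its log2 difference was 0.24 ± 0.45 (SE, 95% interval -0.81 to 1.29, adjusted p = 0.831), and without control replicate 2 it was -0.41.

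LGR4 (ENSG00000205213, chr11:27365961-27472775, minus strand), a receptor for R-spondins that strengthens Wnt signalling, showed the same arrangement. LGR4 measured 24.1 and 21.8 TPM in UCK2 shRNA replicates 1 and 2, against 40.2 TPM in control replicate 1 and 14.8 TPM in control replicate 2. Its log2 difference was -0.09 ± 0.41 (SE, 95% interval -1.06 to 0.88, adjusted p = 0.939), was 0.14 after scaling, and was 0.60 without control replicate 1. The interval is the widest among the 9 but for that of APC. LGR4 acts against RNF43 (ENSG00000108375, chr17:58352500-58417595, minus strand) in the same pathway, since R-spondin bound to LGR receptors takes RNF43 off the membrane. RNF43 measured 15.4 and 13.0 TPM in the UCK2-labelled libraries, against 16.1 and 16.4 TPM in the controls, which did not overlap as deposited and did after scaling (16.8 and 14.1 in UCK2-labelled libraries, against 13.5 and 16.4 in controls). RNF43 had a log2 difference of -0.18 ± 0.21 (SE, limma adjusted p = 0.707), or 0.04 once scaled. SUPT4H1 overlaps the end of RNF43 on the same strand at a higher level, 135 and 117 TPM in UCK2-labelled libraries, against 132 and 163 TPM in the controls, so reads shared with it make the RNF43 level uncertain.

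TCF7L2 (ENSG00000148737, chr10:112950250-113167678, plus strand), a DNA-binding partner of beta-catenin, measured 11.7 and 16.6 TPM in UCK2 shRNA replicates 1 and 2, against 16.4 and 16.2 TPM in the controls. UCK2 shRNA replicate 1 alone was low, and the other 3 libraries lay close together. The log2 difference was -0.21 ± 0.24 (SE, adjusted p = 0.702), 0.01 after scaling and 0.02 without UCK2 shRNA replicate 1. An antisense gene at its start (RP11-57H14.2) measured 2.26 and 0.523 TPM in the UCK2-labelled libraries, against 1.08 and 0.638 TPM in the controls. LEF1 (ENSG00000138795, chr4:108047545-108168956, minus strand), a factor of the same family and a Wnt target, was at 0.204 and 0.325 TPM in the UCK2-labelled libraries, against 1.00 and 0.253 TPM in the controls. Control replicate 1 alone reached 1 TPM. Fitted with no filter on low values, LEF1 gave -0.33 on the log2 scale (95% interval -1.02 to 0.37, adjusted p = 0.658 by limma).

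GLUL (ENSG00000135821, chr1:182381704-182392206, minus strand), glutamine synthetase, had the largest log2 difference of the 9 in size as deposited, while after scaling that of APC, at 0.44, was slightly larger and ran the other way. GLUL measured 88.5 and 69.0 TPM in UCK2 shRNA replicates 1 and 2, against 122 and 126 TPM in the controls. The means were 78.7 ± 13.8 TPM in the UCK2-labelled libraries and 124 ± 3.06 TPM in the controls (SD, n = 2 each), and the log2 difference was -0.66 ± 0.18 (SE, 95% interval -1.08 to -0.24, adjusted p = 0.294). After scaling the values were 96.4 and 74.3 in UCK2-labelled libraries, against 103 and 126 in controls, still without overlap, with a log2 difference of -0.42 (95% interval -0.92 to 0.07, adjusted p = 0.951). The ratio of GLUL to CTNNB1 in the same library was 1.142 and 0.944 in UCK2-labelled libraries, against 1.139 and 1.32 in the controls, and the groups overlapped. GENCODE 29 names 4 GLUL pseudogenes, and reads that fit these and GLUL alike make its level uncertain to an unknown extent.

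Over the protein-coding genes tested that had a transcript length, the differences moved with that length. The median log2 difference of UCK2 shRNA against control was -0.35 for the 2510 genes with a longest coding transcript under 2000 bases. It was -0.08 for the 941 genes of 8000 bases or more. After scaling these medians were -0.12 and 0.12. Between the controls, the median log2 ratio of TPM + 1, replicate 2 over replicate 1, was 0.01 in the shortest class and -0.40 in the longest. That ratio was -0.14 for 2000 to 4000 bases and -0.31 for 4000 to 8000 bases. Between the UCK2 shRNA libraries, replicate 2 over replicate 1, the median ran the other way, from -0.10 in the shortest class to 0.14 in the longest. On the TPM + 1 scale, APC, with a longest coding transcript of 10701 bases, had a log2 ratio of -1.30 between the controls. LGR4, at 5206 bases, had -1.38, and AXIN1 at 3643 bases and AXIN2 at 4259 bases had 0.18 and 0.29. The added 1 understates the ratio of a low gene such as APC. The class of 4000 to 8000 bases, which holds AXIN2, CTNNB1, GLUL, GSK3B, TCF7L2, RNF43 and LGR4, had a median log2 difference between the groups of -0.18 as deposited and 0.03 after scaling. GLUL, AXIN2, CTNNB1, GSK3B and TCF7L2 lay below that median on both scales, the last by a small margin, and RNF43 and LGR4 did not on at least 1. The class of AXIN1, 2000 to 4000 bases, had medians of -0.28 as deposited and -0.06 after scaling, and AXIN1 lay below both. APC lay above the median of the longest class on both scales. The part of transcript length or RNA quality in these values was not tested.

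**Figure D3:**
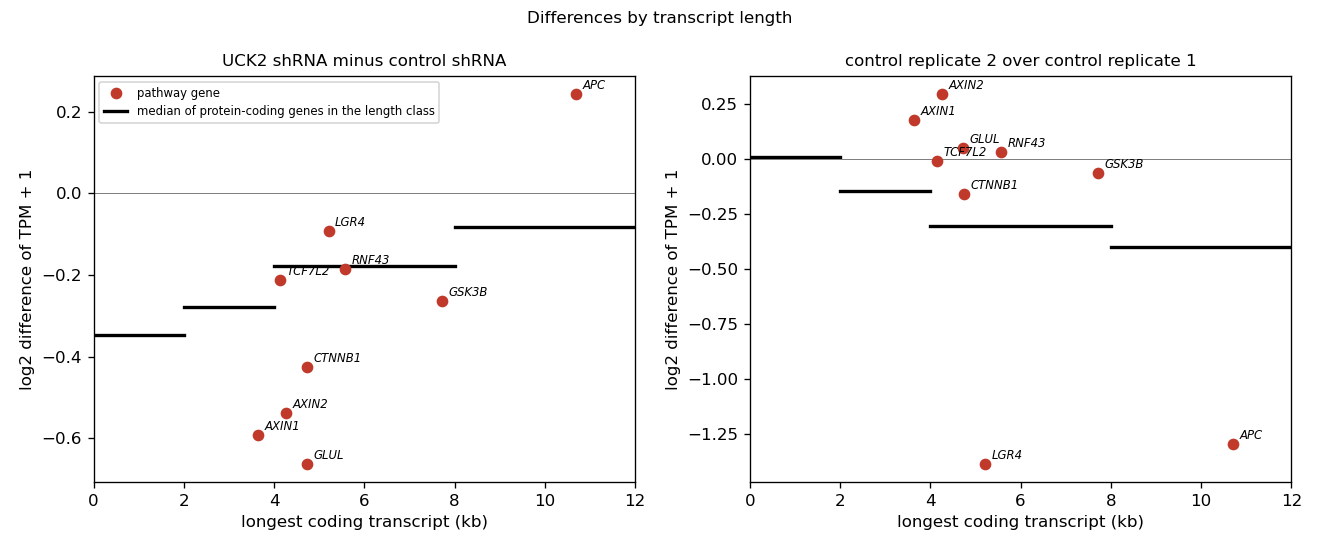
Log2 difference of TPM + 1 of the 9 genes tested (red) against the length of the longest coding transcript in kb. Black bars mark the median of protein-coding genes in 4 length classes. The left panel shows UCK2 shRNA minus control, and the right panel control replicate 2 over control replicate 1. In the right panel LGR4 and APC lie at -1.38 and -1.30, and the class medians step down with length.

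The wider pathway was read from 12 lists holding 133 further genes, of which 127 were in the table and 73 averaged at least 1 TPM. None of the 73 passed over all genes as deposited or after scaling, and the smallest adjusted p was 0.294. The log2 difference was below 0 for 68 of 73 as deposited and 48 of 73 after scaling, against 74.7% and 50.8% of all genes tested. As deposited the groups did not overlap for 44 of 73 lower (60.3%) and 3 of 73 higher, against 44.4% and 5.46% of all genes. After scaling these were 23 of 73 lower (31.5%) and 7 of 73 higher, against 15.5% and 16%. The 3 higher as deposited, LECT2, HAL and SDS, were kept by the filter only through the UCK2-labelled libraries. The lists were chosen with earlier results of these data known. Their median log2 difference was -0.34 as deposited and -0.12 after scaling.

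At the cell surface few ligands were measured above 1 TPM. Of 18 ligand genes measured here, 4 were kept, and 0 passed. WNT5A, a ligand best known for beta-catenin-independent signalling, measured 23.6 and 35.1 TPM in the UCK2-labelled libraries, against 37.5 and 33.9 TPM in the controls. WNT3 measured 4.36 and 4.04 TPM in UCK2-labelled libraries, against 5.49 and 4.63 TPM in controls. WLS, which carries Wnt proteins to the surface, measured 39.2 and 37.4 TPM in UCK2-labelled libraries, against 43.8 and 50.8 TPM in controls, and PORCN, the enzyme that attaches their lipid, measured 9.32 and 11.7 TPM in UCK2-labelled libraries, against 14.8 and 15.2 TPM in controls. Among receptors 11 of 15 were kept and 0 passed, with a median log2 difference of -0.28 as deposited and -0.13 after scaling. LRP5, a co-receptor, measured 117 and 100.0 TPM in UCK2-labelled libraries, against 158 and 139 TPM in the controls, and its log2 difference was -0.45 (adjusted p = 0.294) and -0.21 after scaling. LRP6, its paralog, measured 34.0 and 37.4 TPM in UCK2-labelled libraries, against 56.7 TPM in control replicate 1 and 30.0 TPM in control replicate 2. The LRP6 controls thus lay on either side of the UCK2-labelled libraries, and the ratio of LRP5 to LRP6 was 3.42 and 2.68 in UCK2-labelled libraries, against 2.79 and 4.62 in controls, with overlap.

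LGR4 and RNF43 were the only 2 genes kept of the 8 R-spondin, LGR and ligase genes in the table. LGR5, a stem cell marker and Wnt target, measured 0.193 and 0.199 TPM in UCK2-labelled libraries, against 0.181 and 0.339 TPM in the controls. RSPO2 measured 0 and 0.156 TPM in the UCK2-labelled libraries, against 0.192 and 0 TPM in the controls, and 0.192 TPM was the highest value of any R-spondin gene in a library. LGR4 was the only 1 of the 3 LGR receptors listed that averaged above 1 TPM, while its ligands were near 0 in these cells. Of the secreted and membrane inhibitors 4 of 14 were kept and 0 passed. DKK1, an LRP antagonist that is also a Wnt target, measured 76.1 and 65.6 TPM in UCK2-labelled libraries, against 88.7 and 95.6 TPM in controls. DKK3, a related secreted protein, measured 19.6 and 17.6 TPM in UCK2-labelled libraries, against 34.3 and 33.5 TPM in controls, without overlap on either scale. DKK3 had a log2 difference of -0.84 ± 0.19 (SE, limma adjusted p = 0.294), or -0.60 once scaled.

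Inside the cell, the Dishevelled genes, which pass the signal from Frizzled to the destruction complex, gave 3 of 3 lower without overlap on both scales, against 44.4% of all genes tested as deposited and 15.5% after scaling, and 0 passed. DVL1 measured 27.2 and 24.5 TPM in the UCK2-labelled libraries, against 37.8 and 39.9 TPM in the controls, and DVL2 measured 43.2 and 43.7 TPM in UCK2-labelled libraries, against 61.0 and 54.9 TPM in controls. Their scaled log2 differences were -0.34 and -0.17. Of the 21 genes of the destruction complex and its regulators in the table, all 21 were kept, 0 passed, and the median log2 difference was -0.28 as deposited and -0.04 after scaling. SKP1, of the ubiquitin ligase that takes up marked beta-catenin, measured 204 and 210 TPM in UCK2-labelled libraries, against 246 and 204 TPM in controls. CSNK1D, a casein kinase, measured 156 and 145 TPM in UCK2-labelled libraries, against 189 and 210 TPM in controls. GSK3A, the paralog of GSK3B and named outside the rule, measured 61.7 and 48.9 TPM in UCK2-labelled libraries, against 73.5 and 78.6 TPM in controls, and stood at 3.19 and 2.40 times the GSK3B level in UCK2-labelled libraries, against 2.99 and 3.35 times in the controls. Of the adhesion partners of beta-catenin 6 of 7 were kept with CTNNB1 among them, and 0 passed. CTNNA1, alpha-catenin, measured 106 and 92.8 TPM in UCK2-labelled libraries, against 108 and 132 TPM in controls, and CTNND1, p120-catenin, measured 85.6 and 79.7 TPM in UCK2-labelled libraries, against 102 and 82.3 TPM in controls.

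In the nucleus, 14 of 18 factors in the table were kept and 0 passed, with a median log2 difference of -0.37 as deposited and -0.15 after scaling. AES, a short relative of the TLE corepressors, measured 131 and 129 TPM in UCK2-labelled libraries, against 177 and 199 TPM in the controls, and the corepressor CTBP1 measured 84.6 and 79.5 TPM in UCK2-labelled libraries, against 110 and 116 TPM in controls. Both were without overlap on both scales. TCF7, named after its values were seen, was the highest of the TCF and LEF family in 3 of 4 libraries and just below TCF7L2 in UCK2 shRNA replicate 2, at 15.9 and 16.5 TPM in UCK2-labelled libraries, against 27.6 and 25.8 TPM in controls. TCF7 made up 47.9% and 42.9% of the summed TCF and LEF level in UCK2 shRNA replicates 1 and 2, against 52.7% and 52.6% in the controls. TCF7L2 made up 35.2% and 43.2% in UCK2-labelled libraries, against 31.3% and 33.1% in controls. These shares do not depend on library scaling, the groups overlapped for neither share, and an exact permutation test of 2 libraries against 2 cannot go below p = 0.333. TCF7 had a log2 difference of -0.69 ± 0.19 (SE, limma adjusted p = 0.294), or -0.46 once scaled. BCL9L, a co-activator that binds beta-catenin, was also named after its values were seen and measured 47.9 and 57.0 TPM in UCK2-labelled libraries, against 88.5 and 85.3 TPM in controls.

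General Wnt target genes had the lowest median log2 difference of the 12 lists, at -0.43 as deposited and -0.20 after scaling. The hepatocyte markers, which are no pathway list, had a median of -0.44 as deposited and -0.23 after scaling over the 11 kept. As deposited 10 of these 11 lay below 0, against 74.7% of all genes tested. Of 19 general Wnt target genes measured here, 13 were kept and 0 passed. Lower without overlap were 11 of 13 as deposited, against 44.4% of all genes tested, and 6 of 13 after scaling, against 15.5%. CD44, a surface glycoprotein, measured 203 and 159 TPM in the UCK2-labelled libraries, against 227 and 272 TPM in the controls, and MYC, a growth regulator, measured 90.0 and 86.9 TPM in UCK2-labelled libraries, against 119 and 122 TPM in controls. NKD1, a Dishevelled-binding feedback inhibitor named after its values were seen, measured 4.84 and 4.40 TPM in UCK2-labelled libraries, against 8.40 and 9.97 TPM in controls. NKD1 had a log2 difference of -0.86 ± 0.25 (SE, limma adjusted p = 0.294), or -0.65 once scaled, larger in size than that of AXIN2 on both scales. Of the target genes kept, AXIN2, RNF43, TCF7, NKD1, DKK1, NOTUM and TBX3 also stand in other lists, so the lists are not independent of each other. TNFRSF19, another target named after its values were seen, was below the filter at 1.36 and 1.26 TPM in UCK2-labelled libraries, against 0.678 and 0.0161 TPM in controls, and lay the other way.

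**Figure D4:**
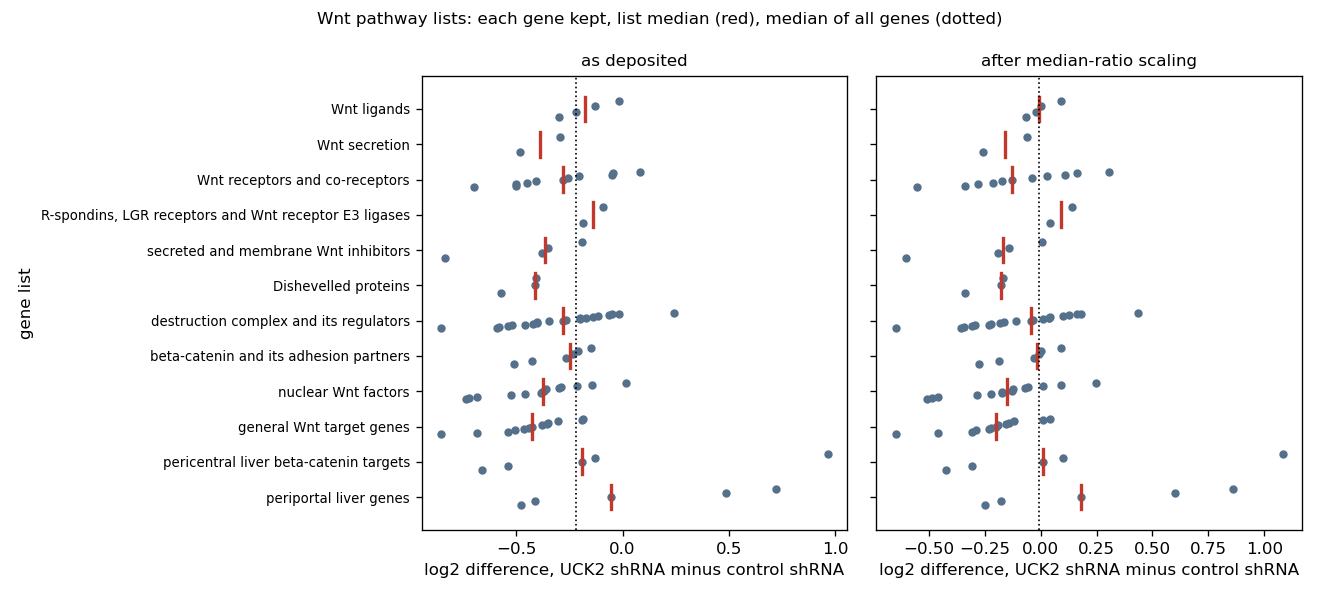
Log2 difference (UCK2 shRNA minus control) of each gene kept in the 12 pathway lists, as deposited (left) and after median-ratio scaling (right), with the list median in red and the median of all genes tested as a dotted line. The general Wnt target list has medians of -0.43 and -0.20, and the pericentral and periportal lists spread to both sides. In the latter lists LECT2, HAL and SDS were kept by the filter only through the UCK2-labelled libraries.

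The liver zonation genes around GLUL were mostly near 0. Of the 13 pericentral beta-catenin targets 5 were kept and 0 passed. OAT, an ornithine aminotransferase, measured 16.4 and 17.3 TPM in UCK2-labelled libraries, against 21.9 and 15.7 TPM in the controls, and TBX3, a transcription factor, measured 4.79 and 3.79 TPM in UCK2-labelled libraries, against 5.12 and 4.90 TPM in controls. CYP2E1, a cytochrome of the pericentral zone named outside the rule, measured 0.559 and 0.418 TPM in UCK2-labelled libraries, against 0.981 and 1.17 TPM in controls. GLUL stood at 5.39 and 3.98 times the OAT level in the UCK2-labelled libraries, against 5.58 and 8.06 times in the controls, without overlap. LECT2, a secreted liver protein named after its values were seen, lay the other way from GLUL, at 1.09 and 2.37 TPM in UCK2-labelled libraries, against 0.584 and 0.163 TPM in controls (log2 difference 0.97 ± 0.39, adjusted p = 0.315). With a control mean of 0.373 TPM, LECT2 was kept by the filter only through the UCK2-labelled libraries. CYP2E1 had a control mean of 1.08 TPM and was left out, as its mean over all libraries was 0.78 TPM. Which pericentral genes were tested therefore depended partly on the group difference itself. Of the 11 periportal genes 5 were kept and 0 passed. ASL measured 54.1 and 43.9 TPM in UCK2-labelled libraries, against 66.7 and 63.9 TPM in controls, and ASS1 measured 37.6 and 41.2 TPM in UCK2-labelled libraries, against 41.6 and 40.2 TPM in controls, both enzymes of the urea cycle. Both HAL and SDS, which break down histidine and serine and were named after their values were seen, lay the other way. HAL measured 1.86 and 1.69 TPM in UCK2-labelled libraries, against 1.11 and 0.336 TPM in controls, and SDS measured 1.56 and 1.54 TPM in UCK2-labelled libraries, against 0.589 and 1.08 TPM in controls. HAL and SDS averaged 0.725 and 0.837 TPM in the controls and were kept by the filter only through the UCK2-labelled libraries. The counts of higher genes and the medians of this list are therefore partly set by the filter. As deposited 2 of the 5 were higher and 2 lower without overlap, against 5.46% and 44.4% of all genes tested. The median log2 difference of the 5 was -0.05. After scaling 3 were higher and 0 lower, against 16% and 15.5% of all genes, with a median of 0.18. A high GLUL level was thus measured beside CYP2E1, LGR5 and CYP1A2 (a further cytochrome, also outside the rule) near 0, the highest value among these 3 being 1.17 TPM for CYP2E1 in control replicate 2.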

How the data were processed

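Paired-end reads of 4 MHCC-97H libraries came from a TruSeq RNA kit, per the labels. The authors deposited TPM per gene with hg38 positions. TopHat2 (2.0.14), HTSeq, DESeq, edgeR and hg38 appear in the submitters' processing notes, without roles. The sources used here do not say whether strand was used in counting, so reads of overlapping genes may be mixed. TPM keeps no depth, so counting error is unknown. Left out of what was analysed here are mitochondrial genes and, for chromosomes 21 and 22, those that code for protein, which removes 6 listed pathway genes such as ZNRF3.

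Titles gave the groups, 2 UCK2 shRNA and 2 control shRNA libraries. Separate cultures are not stated, so p-values cover the spread between these libraries, which may be technical. A mean of 1 TPM or more kept 14038 genes. limma 3.58.1 (R 4.3.3) compared log2(TPM + 1) by eBayes with trend, two-sided, adjusted by Benjamini-Hochberg over those genes, at 0.05. This scale understates differences of low genes. The fit was tested on simulated data. Median-ratio factors were 0.918 and 0.928 for UCK2 shRNA and 1.19 and 1.00 for control. Other alternatives were quantile normalization, pseudocounts, filters, no variance trend, a replicate block and leaving out 1 library at a time.

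The 10 genes and all lists were chosen with earlier results of these data known. Where no gene of a list passed, its 2 most abundant genes outside the 10 are named, and further names are said to be chosen after their values were seen or outside this rule. GENCODE 29 gave transcript lengths for 99.1% of protein-coding genes kept, and RefSeq gave promoter windows. Figures were drawn with matplotlib 3.10.9.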

Additional observations from a re-analysis of the deposited data

How the results depend on the processing

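None of the 9 genes tested passed the threshold under the alternatives named here, except GLUL with crosswise pairing (adjusted p = 0.0264), and AXIN1, AXIN2, CTNNB1, GLUL and GSK3B kept a log2 difference below 0 under each. With median-ratio scaling TCF7L2, RNF43 and LGR4 turned to 0.0126, 0.0411 and 0.14, and with quantile normalization to 0.0074, 0.0211 and 0.13, where UCK2 gave 0.0592. Quantile normalization left CTNNB1 at -0.0417 and GSK3B at -0.0101, and AXIN1, AXIN2 and GLUL at -0.29, -0.24 and -0.27. Leaving out 1 library gave -0.41 to 0.89 for APC, -0.45 to 0.0247 for TCF7L2, -0.78 to 0.60 for LGR4 and -0.72 to 0.10 for UCK2, and the cause was not tested. Over the whole table, limma called 0 genes higher and 0 lower as reported (194 and 1962 at an unadjusted p under 0.05), 9 higher with median-ratio scaling, 8 higher with quantile normalization, and 0 to 242 higher and 0 to 108 lower with 1 library left out. The highest counts came without control replicate 1, and without control replicate 2 they were 32 higher and 21 lower. A library alone in its group is assumed there to vary like the other group. With the replicate block 29 genes were higher and 10 lower. The numbers share no stated source, and libraries of the same number deviated from their group means with a correlation of -0.214 across genes. Pairing them crosswise, which was chosen after seeing the data, gave 91 genes higher and 636 lower. TPM gives no depth, so the precision of low genes such as APC and LEF1 is unknown. With a mean TPM of at least 5 APC was not among the genes kept.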
